A study of Homo sapiens with 24 samples.

Results

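Sem is a human leukaemia line of the B cell precursor type with a rearranged KMT2A gene. The question here was which RNAs in Sem cells given ibrutinib and asparaginase together differed from what the single drugs predict. The departure of a gene was the log2 change with both drugs minus the sum of the log2 changes with ibrutinib alone and with asparaginase alone, on log2(FPKM + 1), where FPKM is the fragment count scaled by gene length and by the reads of the library. A positive departure is called above the sum and a negative one below it. All 12 Sem libraries of the 24 in the series entered it, in 4 groups of 3: untreated cells, cells with 10 µM ibrutinib, cells with asparaginase, and cells with both, each treatment lasting 24 h. The labels give the asparaginase dose as 1 IU/ml in one place and as 0.5 IU/ml in another, the files do not settle it, and no harvest time is given for the untreated cells. The other 12 libraries are the same 4 groups of Nalm6, a B cell precursor leukaemia line without the KMT2A rearrangement, and serve only as a comparison. Of 58735 genes, 13417 reached 1 FPKM in at least 3 Sem libraries and were tested.

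Asparaginase breaks down asparagine, and to a lesser extent glutamine, outside the cell. Cells short of an amino acid carry uncharged transfer RNAs, which activate the kinase GCN2, and translation of the transcription factor ATF4 then rises. ATF4 and its partners switch on amino acid transporters, aminoacyl-tRNA synthetases, serine and proline synthesis, and stress genes such as DDIT3 (CHOP), CHAC1 and TRIB3. Ibrutinib binds BTK, a kinase downstream of the pre-B cell receptor, and at higher concentrations inhibits other kinases as well. The pre-B cell receptor joins the µ heavy chain, encoded by IGHM, to a surrogate light chain made of the products of IGLL1 and VPREB1.

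The Sem libraries held 15 to 18.1 M reads in genes. All 10 markers used for the line, among them FLT3, CD79A, PAX5, EBF1, HOXA9 and MEIS1, averaged at least 1 FPKM over the 12 libraries, and their summed level lay between 942 and 970 FPKM in untreated, 1078 and 1118 in ibrutinib, 1073 and 1112 in asparaginase and 1142 and 1182 in combination libraries. Markers that belong to other cells mostly did not: this mean was reached by 2 of 15 for myeloid cells (3 passed the gene filter), 1 of 16 for T or NK cells (NKG7), 1 of 10 for later B cells or plasma cells and 1 of 12 for red or stromal cells. CD3E, TRBC1, S100A8, S100A9 and HBA1 were listed at 0 in each group. The myeloid sum was 8.56 to 9.56 FPKM in untreated, 4.28 to 5.26 in ibrutinib, 7.18 to 7.34 in asparaginase and 3.5 to 4.75 in combination libraries. The T and NK sum, nearly all NKG7, was 18.4 to 24.8 FPKM untreated, 12.6 to 13.7 with ibrutinib, 14.8 to 17 with asparaginase and 10.7 to 13.9 with both. The red and stromal sum, mostly PECAM1, was 3.51 to 3.81, 6.51 to 6.92, 3.71 to 3.83 and 6.08 to 6.94 FPKM in the same order, and that for later B cells or plasma cells 1.22 to 1.43, 1.31 to 1.56, 1.63 to 2.08 and 1.42 to 1.74. The part of these markers in the results was not tested. Separate cultures are not described, so each p-value is set against the scatter of these libraries alone, and that scatter may be technical. In whole-culture RNA, fewer cells that express a gene and less RNA per cell cannot be told apart.

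Fewer genes departed from the sum than changed with either drug alone. With limma and Benjamini-Hochberg adjustment, 206 of 13417 genes (1.54%) departed at an adjusted p under 0.05, 102 above the sum (0.76%) and 104 below it (0.775%). At an unadjusted p under 0.05, 2219 genes did. For comparison, ibrutinib alone changed 41.5% of the tested genes, asparaginase alone 26.4% and the combination 52.9%, and asparaginase changed 12.1% in cells that also had ibrutinib. A departure is estimated from all 4 groups, with a larger error than a change between 2 groups. These shares therefore do not compare the sizes of the effects. The median size of a called departure was 0.37 log2 units above and 0.40 below, and 60 of the 206 reached 0.5 (24 above, 36 below). All 102 genes above and all 104 below stood on the same side when the FPKM values were added without a log scale. The total depended on single libraries: it was 73 without combination library 3, 92, 116 and 98 without ibrutinib library 1, 2 or 3, 93 and 122 without combination library 2 or 1, 101, 102 and 146 without asparaginase library 1, 2 or 3, 113 and 99 without untreated library 1 or 3, and 374 without untreated library 2. Of the called genes, 30 above and 37 below were called in all 12 of these fits. The split of 102 to 104 also moved with the scaling: it was 68 to 341 on TPM (FPKM rescaled to a fixed sum), 201 to 450 with limma voom on the recovered reads and 93 to 157 after quantile normalization. With all 24 libraries in 1 limma fit, 14 of the called genes picked by the naming rule given under processing were not called: PRSS57, PYCR1, PHGDH, IDI1, FADS2, CDT1, DNAJB1, IGHM, PAX5, JMJD1C, YPEL3, CDKN1A, PMAIP1 and BMF-AS1 (adjusted p from 0.0504 in PAX5 to 0.345 in IGHM). Further list members named below are not in this count, and some of them lost the call too. In that fit the calls below went from 8 to 5 among amino acid transporters and from 10 to 9 in the ATF4 and CHOP list.

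**Figure D1:**
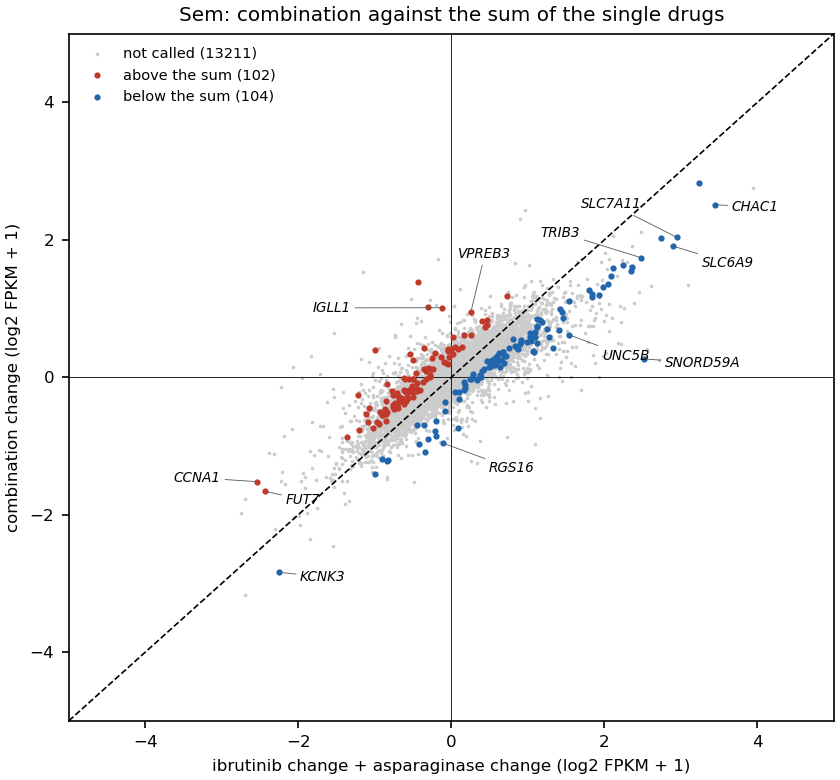
Each dot is 1 of 13417 genes in Sem. The horizontal axis is the sum of the log2 changes with ibrutinib and with asparaginase, the vertical axis the log2 change with the combination, both on log2(FPKM + 1), and the dashed line marks equality. The 102 red genes lie above the line and the 104 blue genes below it; most blue genes sit right of 0, where the single drugs add to a rise, and many red genes left of 0.

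The called genes split by what asparaginase did alone. Of the 104 below the sum, asparaginase alone raised 96 and lowered 1, where it raised 11.4% of all tested genes. Of the 102 above it, asparaginase alone lowered 94 and raised 2, where it lowered 15.1% of all tested genes. The asparaginase libraries enter the departure with a minus sign, so these counts are a description and not independent support. Ibrutinib alone divided them less: it raised 39 and lowered 32 of the genes below, and raised 26 and lowered 53 of those above, where it raised 20.3% and lowered 21.3% of all tested genes. In 76 genes below and 63 above, the combination moved in the predicted direction but by less than the sum. In 16 below and 13 above it moved further than the sum, and in 12 below and 26 above it moved the opposite way.

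Of 25 genes in a list of ATF4 and CHOP and their targets in the amino acid stress response, 21 were tested, 10 were called below the sum and 0 above, and the list's median departure was -0.40 against 0.0035 over all tested genes. Asparaginase alone raised 20 of the 21, and the combination, which raised 26.6% of all tested genes, also raised 20. The median asparaginase change in the list was 1.24 log2 units against untreated cells and 0.95 against ibrutinib-treated cells. Among 12 fits without 1 library, 7 to 10 members were called below, and the list median stayed negative under each scaling tried.

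CHAC1 (ENSG00000128965, GRCh38 chromosome 15, 40952962 to 40956519, plus strand), an enzyme that breaks down glutathione, shows the pattern. Its FPKM was 1.31, 1.71 and 1.92 in untreated libraries, 1.94, 1.87 and 2.33 with ibrutinib, 23, 22.9 and 26.1 with asparaginase, and 12, 15.9 and 14.4 with both. Untreated and ibrutinib libraries overlapped, and every combination library lay between them and the asparaginase libraries. The sum of the drugs predicts 27.8 FPKM, and the departure was -0.94 ± 0.15 (SE, limma adjusted p = 0.0162).

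SLC7A11 (ENSG00000151012, chromosome 4, 138164097 to 138242349, minus strand), which brings cystine into the cell in exchange for glutamate, rose with each drug alone. It stood at 0.651, 0.787 and 0.714 FPKM untreated, 1.49, 1.60 and 1.46 with ibrutinib, 7.71, 8.08 and 8.4 with asparaginase, and 5.91, 5.97 and 6.24 with both. The 4 groups did not overlap, and the combination lay under asparaginase alone although ibrutinib alone had raised the gene. The predicted level was 12.3 FPKM and the departure -0.92 ± 0.08 (limma adjusted p = 0.0005), or -1.40 with a pseudocount of 0.1 and -1.54 with voom, since the log2(FPKM + 1) scale shrinks changes at low levels.

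SESN2 (ENSG00000130766, chromosome 1, 28259527 to 28282491, plus strand), a leucine sensor that restrains mTORC1, had 3.07, 3.02 and 3.28 FPKM untreated and 3.42, 3.21 and 3.74 with ibrutinib. With asparaginase it had 18.1, 19.4 and 18.7, and with both drugs 11.7, 11.6 and 11.2. All combination libraries lay well under the asparaginase libraries and well over the other 2 groups, with a departure of -0.77 ± 0.07 (limma adjusted p = 0.000625). STC2, a secreted glycoprotein, followed the same order, with 13.7, 14.8 and 14.2 FPKM untreated, 15.6, 15.3 and 17.2 with ibrutinib, 51.6, 50.1 and 51.9 with asparaginase and 34.9, 33.2 and 34.0 with both (departure -0.73 ± 0.07, limma adjusted p = 0.000625).

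The other members called in all 12 fits without 1 library were GPT2, an alanine aminotransferase (-0.67), VLDLR, a lipoprotein receptor (-0.61), and the transcription factor ATF5 (-0.40). VLDLR differed in kind: its mean rose from 6.17 FPKM untreated to 12.7 with ibrutinib, 14.9 with asparaginase and 18.9 with both, so it rose further with both drugs, though short of the sum. TRIB3, a pseudokinase that restrains ATF4 signalling, fell short by 0.73 (limma adjusted p = 0.0488), but its call held in 1 of the 12 fits, the one without untreated library 2, and its limma adjusted p reached 0.112 without combination library 2. JDP2 was called in 4 and EIF4EBP1 in 6 of these fits.

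The regulators at the head of the response were not called. ATF4 itself had 201, 191 and 205 FPKM untreated, 194, 206 and 209 with ibrutinib, 268, 254 and 287 with asparaginase and 235, 249 and 254 with both. The asparaginase and combination libraries overlapped at 1 edge and lay above the other 2 groups, and the departure was -0.16 ± 0.07 (limma adjusted p = 0.318). Under 3 other settings it was called, at -0.24 on TPM, -0.19 with voom and -0.34 after quantile normalization. DDIT3 had 27.8, 20.4 and 26.1 FPKM with asparaginase and 22.6, 20.5 and 24.6 with both, against 8.84, 6.90 and 7.60 untreated and 9.03, 9.16 and 9.40 with ibrutinib. Its asparaginase and combination libraries overlapped (-0.34 ± 0.16, limma adjusted p = 0.303). DDIT3 overlaps MARS on the opposite strand, and since it is not stated whether the libraries kept strand, the 2 genes may share reads.

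ASNS, the enzyme that makes asparagine from aspartate and glutamine, was low in Sem. It had 0.434, 0.243 and 0.219 FPKM untreated, 0.449, 0.413 and 0.396 with ibrutinib, 1.53, 1.83 and 1.51 with asparaginase and 1.07, 1.05 and 1.15 with both. The combination libraries lay between the asparaginase libraries and the rest. Its departure of -0.46 ± 0.15 did not pass (limma adjusted p = 0.159), and it did when all 24 libraries were fitted together (adjusted p = 0.0235). At these levels the precision is limited by few reads.

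Promoters of the called genes were searched for the core of the ATF4 and C/EBP response element, TGATGNAA on either strand, from 250 bases before to 50 after the start in the RefSeq table (GRCh38.p14), which held 149 of the 206 genes. It was found in 5 of 74 promoters of genes below the sum (6.76%), in 0 of 75 above it, in 136 of 8675 promoters of tested genes (1.57%) and in 1003 of all 27305 (3.67%). Of the 7 promoters held for called genes of the ATF4 and CHOP list, 1 had it. Matches in CHAC1 and GOT1 are shown because both genes were called and named below the sum. The CHAC1 match and the RefSeq start of CHAC1 both lie inside the gene span given above. The stretches lie at chr15:40953246-40953285 (CHAC1, plus strand, first motif base at -209 from the RefSeq start) and chr10:99430799-99430838 (GOT1, minus strand, -198). Capitals mark the motif, read on the reverse strand in both, and neither stretch holds another of the motifs searched on both strands, the E-box CACGTG, the heat shock element, the ER stress element and the sterol element TCACNCCAC.
CHAC1: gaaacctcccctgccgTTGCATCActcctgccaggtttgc
GOT1: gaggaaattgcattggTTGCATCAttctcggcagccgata
The E-box was in 10 of 75 promoters above the sum (13.3%), 9 of 74 below (12.2%) and 10.6% of tested genes, and the sterol element in 1, 2 and 1.13%, with 0 of the 7 promoters held for called cholesterol genes. The heat shock element was in 0 above, 1 below and 0.334% of tested genes, and the ER stress element in 0 above and 0 below. A match describes these letters and is not evidence of a bound site.

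**Figure D2:**
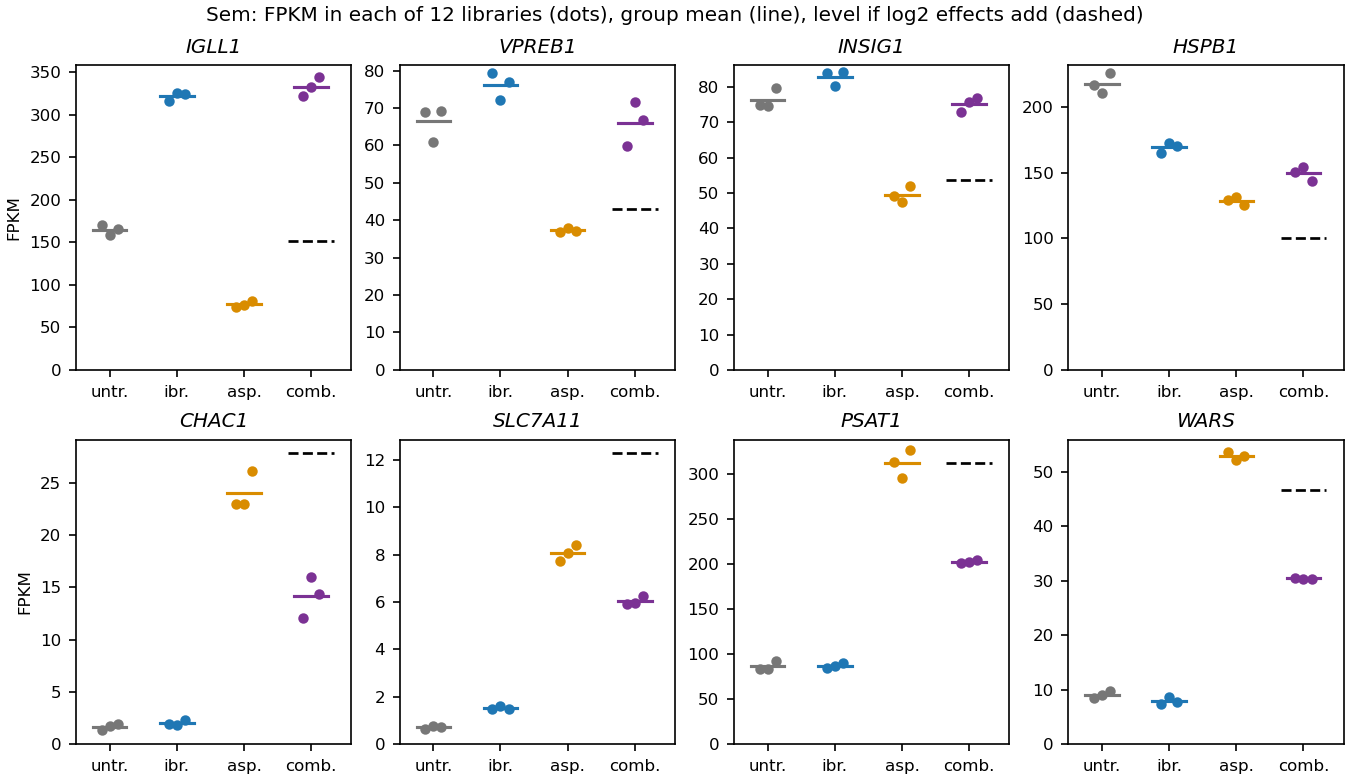
FPKM of 8 genes in each of the 12 Sem libraries (dots) by group, with the group mean (solid line) and the combination level that the added log2 changes predict (dashed line). In IGLL1, VPREB1, INSIG1 and HSPB1 every combination library lies above the dashed line, and in CHAC1, SLC7A11, PSAT1 and WARS every one lies below it.

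Amino acid transporters shared the shortfall. Of 15 listed transporters, 8 were called below the sum and 0 above (median -0.31), while asparaginase alone raised 11. Of the 15, 5 were called below with all 24 libraries in 1 fit. Without 1 library 3 to 7 were: 3 without asparaginase 1, asparaginase 2, combination 3 or ibrutinib 3, 4 without asparaginase 3, combination 1, ibrutinib 1 or untreated 3, 5 without combination 2, ibrutinib 2 or untreated 1, and 7 without untreated 2. SLC6A9 (ENSG00000196517, chromosome 1, 43991500 to 44031467, minus strand), which carries glycine, had the most negative departure of the genes named here. It had 0.580, 0.512 and 0.555 FPKM untreated, 0.950, 0.954 and 1.37 with ibrutinib, 7.50, 7.49 and 7.72 with asparaginase and 4.57, 5.22 and 4.70 with both. The groups did not overlap, and the combination reached less than the predicted 10.5 FPKM (departure -0.99 ± 0.11, limma adjusted p = 0.0018, or -1.50 with a pseudocount of 0.1 and -1.64 with voom).

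SLC38A2, a carrier of small neutral amino acids, had 62.5, 68.4 and 66.3 FPKM untreated, 80.9, 80.4 and 81.4 with ibrutinib, 100, 96.4 and 99.2 with asparaginase and 88.2, 88.1 and 86.9 with both. Each drug alone raised it, and the combination stood between the 2 single drugs with no overlap (departure -0.46 ± 0.05, limma adjusted p = 0.00116). SLC38A1 departed by -0.37 and was called in 2 of 12 fits without 1 library (untreated 1 or untreated 2 left out), with an adjusted p of up to 0.0911. SLC1A5, a glutamine and neutral amino acid carrier, and SLC1A4, SLC43A1 and SLC7A1 departed by -0.33, -0.34, -0.36 and -0.31, and were called in 6, 3, 2 and 1 of these fits. SLC7A5 (-0.23) and its partner SLC3A2 (-0.12), which form the large neutral amino acid transporter, were not called.

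Among 17 tested enzymes of asparagine, aspartate, serine and proline synthesis, 5 were called below the sum and 0 above (median -0.15). With all 24 libraries in 1 fit 3 were called below. Called below were 4 without untreated 2 or untreated 3, 3 without ibrutinib 1 or ibrutinib 2, and 2 without any 1 of the other 8 libraries. PSAT1 (ENSG00000135069, chromosome 9, 78297143 to 78330093, plus strand), the aminotransferase of serine synthesis, had 84.0, 83.8 and 92.3 FPKM untreated, 84.2, 86.4 and 90.2 with ibrutinib, 313, 296 and 326 with asparaginase and 201, 203 and 205 with both. Ibrutinib alone left it within the untreated range, yet the combination libraries lay far under the asparaginase libraries (departure -0.62 ± 0.07, limma adjusted p = 0.00123). PYCR1, which makes proline, had 41.2, 37.5 and 38.6 FPKM untreated, 36.7, 37.6 and 38.2 with ibrutinib, 59.1, 61.5 and 63.9 with asparaginase and 44.7, 46.5 and 45.5 with both (-0.36 ± 0.06, limma adjusted p = 0.0143, or 0.115 with all 24 libraries in 1 fit). Again the ibrutinib and untreated libraries overlapped while the combination stood between them and asparaginase alone. PHGDH, the entry enzyme of serine synthesis (-0.32), GOT1, the cytosolic aspartate aminotransferase (-0.37), and MTHFD2, of mitochondrial one-carbon metabolism (-0.26), were called in 3, 1 and 2 of the 12 fits.

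Of 20 cytoplasmic aminoacyl-tRNA synthetases, which charge transfer RNAs, 4 were called below and 0 above (median -0.19). Without 1 library 3 to 6 were called below, 6 of them without untreated library 2, 10 were on TPM and with voom, and 7 with all 24 libraries in 1 fit. WARS (ENSG00000140105, chromosome 14, 100333788 to 100376805, minus strand), for tryptophan, had 8.49, 8.99 and 9.74 FPKM untreated, 7.35, 8.66 and 7.74 with ibrutinib, 53.6, 52.2 and 52.8 with asparaginase and 30.5, 30.3 and 30.3 with both. The combination libraries were tightly grouped under the asparaginase ones (departure -0.60 ± 0.08, limma adjusted p = 0.00426). SARS, for serine, departed by -0.39 ± 0.06 and YARS, for tyrosine, by -0.27 ± 0.04 (limma adjusted p = 0.0103 and 0.0124). MARS, for methionine, departed by -0.28 and lost its call without combination library 2 or 3 or ibrutinib library 1 (adjusted p up to 0.0527). NARS, for asparagine, had a departure of -0.17 and was not called.

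**Figure D3:**
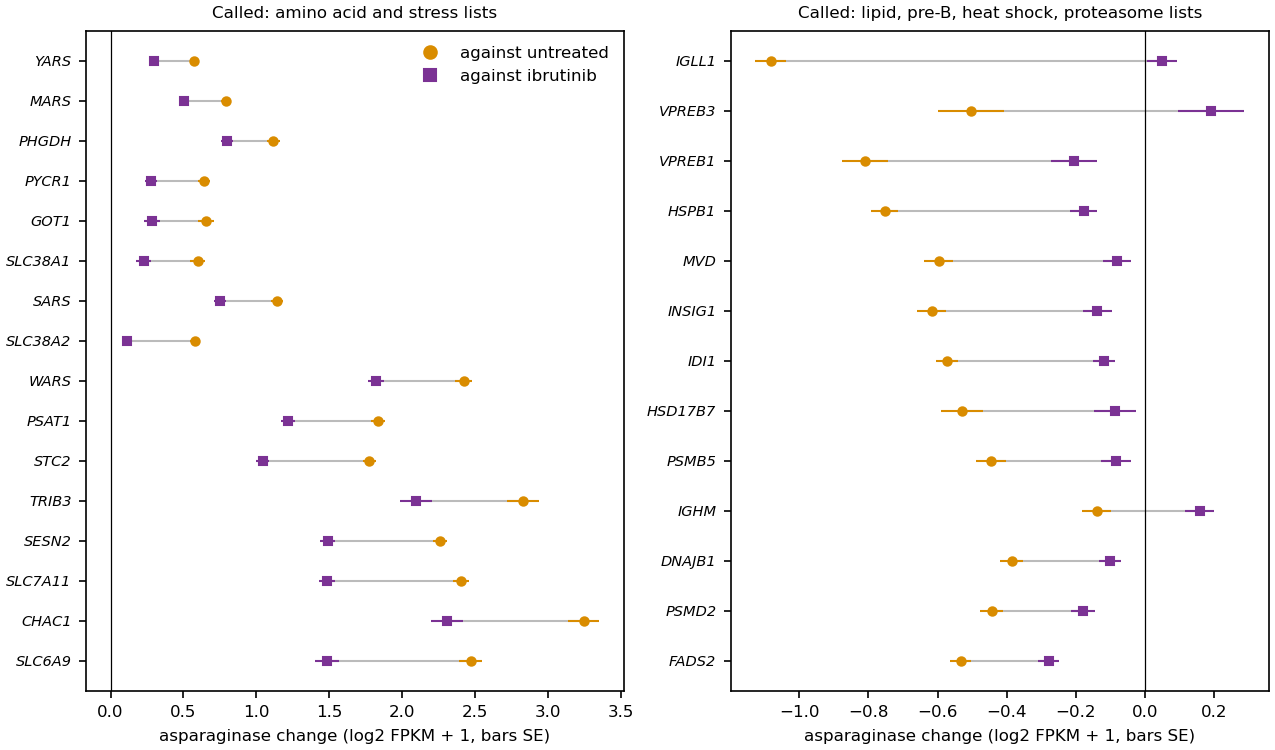
Log2 change with asparaginase against untreated cells (orange circles) and in ibrutinib-treated cells (purple squares), on log2(FPKM + 1) with SE bars, for the called members with the largest departures, up to 4 a list and others named by the same rule, of 4 amino acid and stress lists (left) and 5 lipid, pre-B, heat shock and proteasome lists (right). In every gene drawn on the left the purple square lies nearer 0 than the orange circle, and on the right all purple squares lie to the right of the circles.

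Among the other named genes below the sum, RGS16 (ENSG00000143333, chromosome 1, 182598623 to 182604408, minus strand), which shortens signalling through G protein-coupled receptors, had 9.76, 11.9 and 11.1 FPKM untreated, 4.17, 4.13 and 4.39 with ibrutinib, 23.0, 24.6 and 24.6 with asparaginase and 4.68, 4.80 and 5.87 with both. Asparaginase alone raised it by 1.08 log2 units, and in ibrutinib-treated cells the asparaginase change was 0.22, which did not pass (limma adjusted p = 0.0963). The departure was -0.86 ± 0.11 (limma adjusted p = 0.00404). MELTF (chromosome 3, 196988621 to 197029816, minus strand), an iron-binding surface protein, had 28.2, 26.8 and 25.5 FPKM untreated, 16.7, 15.5 and 16.3 with ibrutinib, 34.0, 36.2 and 33.7 with asparaginase and 12.7, 12.5 and 11.2 with both. Its asparaginase change turned from a rise of 0.36 alone to a fall of -0.39 on ibrutinib, both called (on ibrutinib, asparaginase raised 4.81% and lowered 7.3% of all tested genes), and the departure was -0.74 ± 0.08 (limma adjusted p = 0.000923).

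UNC5B (chromosome 10, 71212570 to 71302864, plus strand), a netrin receptor, had 1.51, 1.49 and 1.44 FPKM untreated, 0.698, 0.468 and 0.709 with ibrutinib, 9.32, 10.4 and 10.3 with asparaginase and 2.62, 2.67 and 3.14 with both. The 4 groups did not overlap, and its departure was -0.92 ± 0.11 (limma adjusted p = 0.00259). The UNC5B call depended on the scale: it was -0.66 (adjusted p = 0.122) with a pseudocount of 0.1 and -0.60 (0.0835) with voom. PLXNA1, a semaphorin coreceptor, departed by -0.80 ± 0.08, with 8.32, 8.77 and 7.82 FPKM on asparaginase and 5.39, 5.44 and 5.89 on both (limma adjusted p = 0.000968). KIF21B, a kinesin motor (-0.69), and SPNS3, of the Spinster transporter family (-0.72), completed the largest departures below the sum, and both were called in all 12 fits without 1 library.

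Of 18 tested genes of ERK feedback and immediate early response, 2 were called below and 0 above (median -0.18). In fits without 1 library 2 were called without combination 2 or untreated 3, and 1 without any 1 of the other 10. SPRED1, an inhibitor of RAS to ERK signalling, had 5.01, 5.14 and 5.28 FPKM untreated, 3.40, 3.33 and 3.81 with ibrutinib, 6.99, 6.84 and 6.85 with asparaginase and 3.33, 3.35 and 3.41 with both (departure -0.41 ± 0.07, limma adjusted p = 0.0162). The combination libraries fell inside the ibrutinib range, so the rise with asparaginase alone was not seen on ibrutinib. ETV5, an ETS factor, had the same order (-0.41), but its call was lost in all 12 fits without 1 library (adjusted p up to 0.117 without asparaginase library 2). DUSP6, the ERK phosphatase, had 5.27, 6.01 and 6.44 FPKM untreated, 0.195, 0.410 and 0.272 with ibrutinib, 8.90, 9.50 and 9.43 with asparaginase and 0.468, 0.272 and 0.294 with both, and its departure of -0.52 ± 0.13 did not pass (limma adjusted p = 0.0721). DUSP6 was called with all 24 libraries in 1 limma fit (adjusted p = 0.00693) and after quantile normalization (-0.55, adjusted p = 0.0282). The 24-library fit called 5 of the 18 listed genes below the sum, and TPM 3.

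Single members of other lists were below the sum. EDEM1, which helps remove misfolded proteins from the endoplasmic reticulum, was the only call among 25 genes of that list (-0.44 ± 0.06, limma adjusted p = 0.00331), with means of 24.7 FPKM on ibrutinib, 39.7 on asparaginase and 38.2 on both. PAX5, the B lineage regulator, had 87.2, 96.9 and 87.1 FPKM untreated, 111, 118 and 116 with ibrutinib, 132, 134 and 139 with asparaginase and 124, 133 and 130 with both. Each drug raised it and the combination did not exceed asparaginase alone (-0.41 ± 0.07, limma adjusted p = 0.0162, lost without combination library 3 at 0.0505). PMAIP1, the cell death gene NOXA, rose with each drug and most with both, to 53.1, 51.1 and 50.9 FPKM against a predicted 63.0 (-0.28), and was called in 6 of 12 fits. JMJD1C, a chromatin regulator used by KMT2A-rearranged leukaemias, departed by -0.29 and was called in 1 of 12 fits, the one without untreated library 2.

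Above the sum, both genes of the surrogate light chain were called. IGLL1 (ENSG00000128322, chromosome 22, 23573125 to 23580308, minus strand) had 170, 158 and 165 FPKM untreated, 316, 326 and 324 with ibrutinib, 73.4, 76.9 and 81.4 with asparaginase and 322, 332 and 345 with both. With asparaginase alone it fell by 1.08 log2 units, whereas in ibrutinib-treated cells its change was 0.05, and ibrutinib and combination libraries overlapped. The sum predicts 151 FPKM, and the departure was 1.13 ± 0.06 (limma adjusted p = 2.0e-05), called in each of the 24 alternatives run, with values of 0.95 to 1.17. AP000345.1, an antisense gene that overlaps IGLL1, moved the same way (16.7, 31.6, 6.87 and 34.9 FPKM as group means) and may share its reads.

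VPREB1 (ENSG00000169575, chromosome 22, 22244675 to 22245515, plus strand), the other part of the surrogate light chain, had 68.9, 61.0 and 69.3 FPKM untreated, 79.3, 72 and 77 with ibrutinib, 36.9, 38.0 and 37.2 with asparaginase and 59.9, 71.6 and 66.7 with both. The asparaginase libraries lay apart from all others, and the combination overlapped the untreated range (departure 0.61 ± 0.09, limma adjusted p = 0.0125). VPREB3, a related chaperone-like protein, had 12.5, 10.8 and 13.8 FPKM untreated, 20.9, 22 and 21.6 with ibrutinib, 8.92, 7.06 and 9.33 with asparaginase and 24.1, 26.2 and 23.8 with both (0.69 ± 0.14, limma adjusted p = 0.0346). It was called in 3 of 12 fits without 1 library, and without combination library 2 its adjusted p was 0.0916.

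IGHM, the µ heavy chain, had 215, 208 and 209 FPKM untreated, 303, 331 and 314 with ibrutinib, 187, 196 and 191 with asparaginase and 344, 369 and 346 with both, so the combination was the highest group. Its departure of 0.30 ± 0.06 (limma adjusted p = 0.0346) was called in 2 of 12 fits and fell to 0.13 after quantile normalization. MZB1, an endoplasmic reticulum protein that assists immunoglobulin assembly, had 36.2, 35.8 and 36.6 FPKM untreated, 52.7, 52.4 and 52.6 with ibrutinib, 32.4, 33.8 and 33.1 with asparaginase and 63.0, 64.9 and 65.9 with both. Its 4 groups did not overlap: asparaginase lowered it alone and raised it on ibrutinib (departure 0.42 ± 0.04, limma adjusted p = 0.000687).

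Of 20 tested genes of pre-B cell receptor signalling, 4 were called above (IGLL1, VPREB1, VPREB3 and IGHM) and 0 below, with a median departure of 0.06, which turned to -0.02 on TPM. In fits without 1 library 4 were called above without untreated 2, 3 without asparaginase 2, asparaginase 3 or ibrutinib 2, and 2 without any 1 of the other 8. TPM and voom each called 2 members below, and quantile normalization and the 24-library fit 1 each. At an unadjusted p under 0.05 limma had 9 of the 20. BTK, the target of ibrutinib, had 39.3, 40.5 and 39.3 FPKM untreated, 35.6, 37.6 and 39.3 with ibrutinib, 37.1, 36.2 and 37.2 with asparaginase and 36.1, 35.2 and 36.2 with both. Its groups lay within a narrow range and its departure was 0.04 ± 0.05 (limma adjusted p = 0.741), with the sign turning on TPM and after quantile normalization. SYK (0.05), LYN (0.02) and BLK (0.03) were likewise not called.

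Of the lists described, cholesterol synthesis had the most calls above the sum. Of 23 tested genes of cholesterol synthesis and uptake, 11 were called above and 0 below. Of their departures 22 were positive, against 6822 of 13417 over all tested genes (median 0.29 against 0.0035). Asparaginase alone lowered 21 of the 23, ibrutinib alone lowered 13 and the combination lowered 17. Over all tested genes these shares were 15.1%, 21.3% and 26.3%. The median asparaginase change in the list was -0.43 against untreated and -0.12 against ibrutinib-treated cells. In fits without 1 library 7 to 13 members were called above (7 without asparaginase 1, asparaginase 2, combination 2, combination 3, ibrutinib 3 or untreated 3), and the median stayed positive under each scaling, at 0.21 on TPM and 0.22 after quantile normalization.

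INSIG1 (ENSG00000186480, chromosome 7, 155297776 to 155310235, plus strand), which holds the sterol-sensing complex in the endoplasmic reticulum, had 74.9, 74.5 and 79.8 FPKM untreated, 84.0, 80.1 and 84.3 with ibrutinib, 49.2, 47.3 and 52.0 with asparaginase and 72.9, 75.8 and 76.8 with both. The combination overlapped the untreated libraries, and asparaginase alone stood lowest (departure 0.48 ± 0.06, limma adjusted p = 0.00329). MVD, which makes isopentenyl diphosphate, had 13.5, 13 and 13.3 FPKM untreated, 10.9, 11.2 and 10.7 with ibrutinib, 8.45, 8.33 and 8.56 with asparaginase and 10.8, 10.4 and 9.63 with both. Its combination libraries lay near the ibrutinib ones, above asparaginase alone (0.52 ± 0.06, limma adjusted p = 0.00167). IDI1, the next enzyme, had 63.2, 60.9 and 64.0 FPKM untreated, 56.6, 56.6 and 57.8 with ibrutinib, 42.3, 40.5 and 42.7 with asparaginase and 51.4, 53 and 52.8 with both (0.45 ± 0.04, limma adjusted p = 0.000769, or 0.108 with all 24 libraries in 1 fit).

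LSS, lanosterol synthase (0.44), TM7SF2, a sterol reductase (0.41), HMGCS1, which makes HMG-CoA (0.41), and FDFT1, squalene synthase (0.40), were also called in all 12 fits without 1 library. HSD17B7, a sterol ketone reductase (0.44), and SQLE, squalene epoxidase (0.28), were called with all libraries and in 3 and 0 of the 12 fits. SREBF2, the gene of the main transcription factor of the pathway (0.02), CYP51A1 (-0.01) and SC5D (0.05) were not called. Of 13 fatty acid synthesis genes, all with positive departures (median 0.14, 0.06 on TPM), FADS2, a desaturase, alone was called (0.25), and it lost its call without asparaginase 1, combination 2, combination 3 or ibrutinib 1 (adjusted p up to 0.067) and dropped to 0.14 after quantile normalization.

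**Figure D4:**
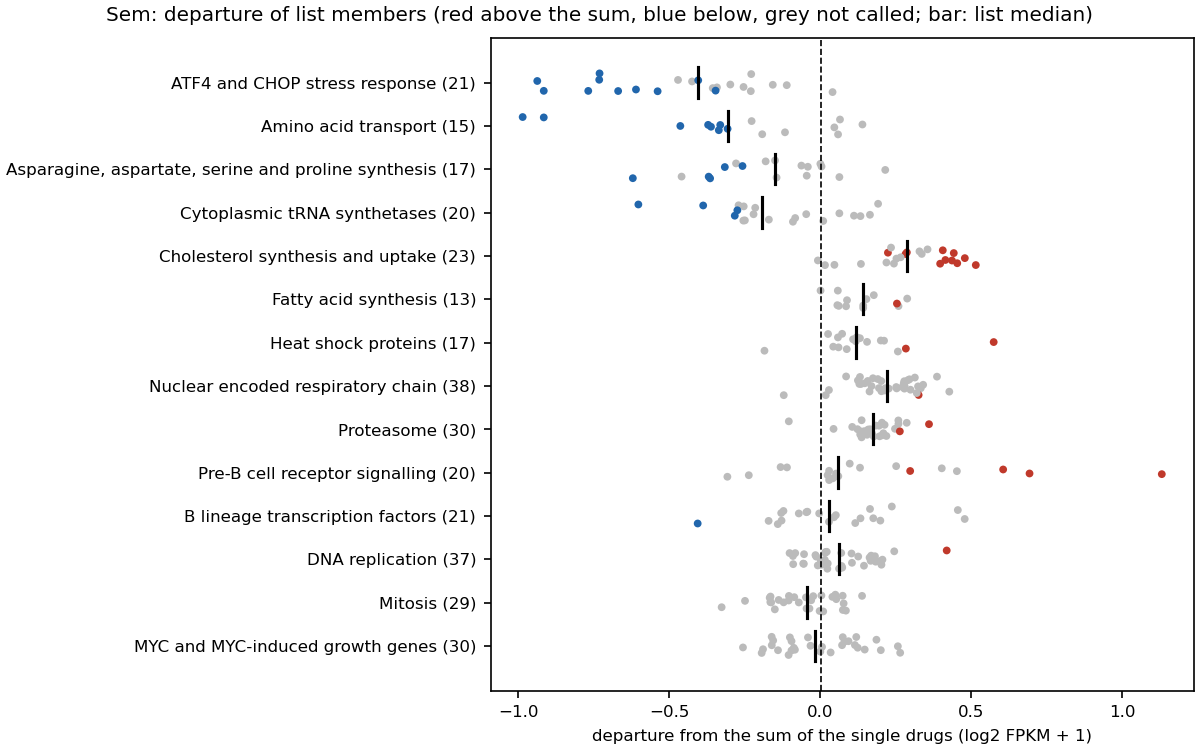
Departure from the sum for every tested member of 14 gene lists (dots, with the number tested in parentheses); red members are called above, blue below and grey not called, black bars are list medians and the dashed line is the median of all tested genes. The amino acid lists lie left of the line with medians from -0.40 to -0.15, and the cholesterol list right of it at 0.29.

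Both small heat shock proteins that were named lay above the sum. HSPB1 (ENSG00000106211, chromosome 7, 76302544 to 76304295, plus strand) had 216, 211 and 225 FPKM untreated, 165, 173 and 170 with ibrutinib, 129, 131 and 126 with asparaginase and 151, 155 and 143 with both. Each drug alone lowered it, and the combination stood between the single drugs, over the predicted 100 FPKM (0.57 ± 0.05, limma adjusted p = 0.000625). HSPB7 had 20.3, 22 and 20.9 FPKM untreated, 30.2, 31.5 and 31.9 with ibrutinib, 14.8, 14.1 and 14.3 with asparaginase and 32.0, 32.0 and 32.8 with both (0.57 ± 0.05, limma adjusted p = 0.000625). Of 17 listed heat shock genes 2 were called above, HSPB1 and the HSP40 cochaperone DNAJB1 (0.28), and 0 below (median 0.12), but TPM, voom and quantile normalization each called 1 below. HSPA8 (0.04) and HSP90AB1 (0.06) were not called.

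Other genes above the sum belong to varied processes. TKT, transketolase of the pentose phosphate pathway, had 68.6, 68.9 and 71.4 FPKM untreated, 66.4, 70.7 and 69.8 with ibrutinib, 51.1, 51.1 and 50.1 with asparaginase and 72.6, 72.2 and 72.9 with both. Asparaginase lowered it alone but not on ibrutinib (departure 0.52 ± 0.04, limma adjusted p = 0.0005). CDT1, which licenses replication origins, had 54.7, 56.1 and 59.7 FPKM untreated, 55.1, 55.1 and 54.6 with ibrutinib, 59.1, 57.2 and 59.2 with asparaginase and 77.2, 76.6 and 74.3 with both. Neither drug alone moved CDT1 past the test, and the combination libraries lay above all others (0.42 ± 0.05, limma adjusted p = 0.00219). It was the only call among 37 replication genes, and with all 24 libraries in 1 limma fit its adjusted p was 0.286 and 0 of the 37 were called.

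CXorf21, an adaptor of endosomal Toll-like receptor signalling, had 30.7, 31.5 and 32.4 FPKM untreated, 39.5, 41.3 and 40.8 with ibrutinib, 21.3, 19.6 and 22.4 with asparaginase and 40.6, 41.1 and 39.7 with both (0.56 ± 0.06, limma adjusted p = 0.00167). The fall with asparaginase alone was absent on ibrutinib, where the 2 groups overlapped. TMEM173, the innate immune adaptor STING (0.58), lost its call without combination library 2 (adjusted p = 0.0505), and PRSS57, a granule serine protease (0.58), without asparaginase 2, combination 2, combination 3 or ibrutinib 1 (up to 0.0613). FUT7, a fucosyltransferase (0.78), DPT, of the extracellular matrix (0.76), ALDOC, a glycolytic aldolase (0.63), and BMF-AS1, antisense to the cell death gene BMF (0.78), completed the named genes above the sum. They were called in 3, 5, 4 and 2 of the 12 fits, with adjusted p up to 0.075, 0.0632, 0.0716 and 0.116.

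The p53 target list, with 19 members tested, was not complete: PMAIP1 and SESN2, called below the sum, were not in it. CDKN1A, the cell cycle inhibitor p21, was its only call (0.35). Each drug lowered it, from 58.8, 59.8 and 59.9 FPKM to 42.2, 44.7 and 43.6 with ibrutinib and 41.1, 43.6 and 45.3 with asparaginase, and the combination at 39.3, 40.2 and 42.1 overlapped asparaginase alone (limma adjusted p = 0.0162, lost without combination library 3 at 0.0513). YPEL3, of the quiescence list (0.45), was highest with both drugs at 33.0, 33.7 and 32.2 FPKM and was called in 3 of 12 fits. Cytoplasmic ribosomal proteins (66 of 69 departures positive) and heat shock genes (16 of 17) leaned upward, with 0 and 2 called. Respiratory chain and proteasome genes leaned upward too, again with few calls. Of their departures 37 of 38 and 29 of 30 were positive (medians 0.22 and 0.17), against 6822 of 13417 over all tested genes. Yet 1 and 2 were called, COX4I1 of the respiratory chain (0.33), and PSMB5 (0.36) and PSMD2 (0.26) of the proteasome. In fits without 1 library 0 to 2 members of each were called above, except without untreated 2, where 10 and 7 were.

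In 7 further lists no member was called in the fit of the 12 Sem libraries. With limma 0 genes passed the adjusted threshold among 30 MYC-induced growth genes (median -0.02), 29 mitotic genes (-0.05), 32 of ribosome biogenesis (-0.07), 69 cytoplasmic ribosomal proteins (0.10), 26 of autophagy and lysosome (0.06), 19 interferon response genes (0.03) or 10 of MHC class II (-0.19). At an unadjusted p under 0.05 limma had 9, 6, 3, 10, 4, 6 and 4 genes of these 7 lists in that order, and limma voom called 4, 3, 1, 2, 0, 0 and 4 after adjustment. In the same order TPM called 2, 1, 0, 1, 1, 0 and 4, all below the sum, and quantile normalization 3 below, 0, 0, 0, 0, 1 above and 1 below. TPM moved the median of all genes to -0.076, and the medians for autophagy and interferon turned to -0.02 and -0.04 on it, as that for ribosomal proteins turned to -0.01 after quantile normalization. MYC itself had 155, 154 and 155 FPKM untreated, 170, 169 and 172 with ibrutinib, 159, 157 and 156 with asparaginase and 170, 171 and 168 with both, so ibrutinib and combination libraries overlapped (-0.03 ± 0.04, limma adjusted p = 0.716, though -0.19 and 0.0497 after quantile normalization). HSPA5, the main chaperone of the endoplasmic reticulum, had means of 121 FPKM untreated, 89.5 with ibrutinib, 99.4 with asparaginase and 80.3 with both (0.13 ± 0.05, limma adjusted p = 0.263). Clustered histone genes (12 tested, median 0.34, 9 positive) and mitochondrially encoded messenger RNAs (13 tested, median 0.20, 10 positive) also had 0 calls. A miss of the threshold does not show that these genes add exactly.

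In Nalm6, whose libraries are separate, 738 of 13237 genes (5.58%) departed, 396 above (2.99%) and 342 below (2.58%). Of the 87 Sem genes below the sum that were tested in Nalm6, 35 were called below there and 2 above. Of the 88 above the sum, 21 were called above and 4 below. Nalm6 called 16 of 21 members of the ATF4 and CHOP list below the sum, and 6 of 22 of the cholesterol list above it. CHAC1 departed by -1.15, SLC6A9 by -1.13, SESN2 by -1.17, PSAT1 by -0.67 and WARS by -0.62 in Nalm6, and none of these differed between the lines by the test (adjusted p of 0.359 to 0.962).

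The departure differed between the lines in 366 of 15116 genes (2.42%), 138 more positive in Sem (0.913%) and 228 more negative (1.51%). Counted without regard to the sign of that difference, it was called in 16 of the 102 genes above the sum in Sem and 25 of the 104 below. The Sem departure is part of that difference, so these counts are a description and not independent support. Among the named genes the difference was most positive in IGLL1, at 1.46 ± 0.13 (limma adjusted p = 3.3e-06): in Nalm6 its means were 858 FPKM with ibrutinib, 371 with asparaginase and 248 with both, so the combination had the lowest mean there and the highest mean in Sem. VPREB3 (1.13) and MZB1 (1.05) also differed, with Nalm6 departures of -0.44 and -0.63, while VPREB1 did not, at 0.61 in Sem and 0.60 in Nalm6.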

How the data were processed

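RNA was sequenced in 24 libraries, of which the 12 of Sem are the subject. The authors deposited FPKM values for each gene. Per the submitters' processing notes, the tools were fastp, STAR and featureCounts and the build was hg38; versions, strand setting and the scaling of FPKM are not given in the sources used here. All 58735 gene identifiers matched GENCODE 29. Deposited values of 1 or more had lost their decimal point (150902 of 704820 Sem values, 21.4%). Intact values times gene length were whole multiples of 1 step per library, so a damaged value could stand only for whole reads times a power of 10, and the powers were scored over the 12 libraries of a line together, with Student t priors on replicate spread and drug effects. A further prior of this kind was set on the departure itself, with a scale of 0.06 log10 units. It favoured powers under which the drug effects add, so the restoration was not independent of the departure tested. Of the restored Sem values, 222, in 135 tested genes, had a posterior under 0.99. On simulated data for the Sem interaction (13378 genes) 99.97% of 150805 values were restored correctly. No gene made to depart by up to 2 log2 units held a wrong value, but 4 of 20 departing by -3 and 9 of 20 by -3.5 did, so strong shortfalls could be missed. So did 1 of 20 departing by 3.5 and 3 of 11526 unchanged genes. Of the 47 values restored wrongly, 3 had a posterior of 0.99 or more. In these simulated data limma called 12 of 20 departures of -0.5, 16 of 20 of 0.5 and 12 of 11526 unchanged genes. One read in a 1 kb gene stood for 0.058 to 0.069 FPKM in Sem, which limits low values.

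Genes with at least 1 FPKM in at least 3 libraries were fitted by limma 3.58.1 (trend, R 4.3.3) on log2(FPKM + 1), with two-sided tests adjusted by Benjamini-Hochberg for all tested genes together, 8 residual degrees of freedom in Sem and 16 for the difference between the lines. Expected levels come from the added log2 changes. Described genes were the 12 largest called departures per side with a group mean of at least 5 FPKM and all posteriors of at least 0.99, 7 fixed genes (ASNS, BTK, ATF4, DDIT3, TRIB3, MYC, HSPA5), up to 4 called members of each described list (2 of a list without calls), and the 5 largest differences between the lines per side; further list members and overlapping genes were named after their values were seen. The members and the 35 gene lists were chosen with earlier results of these data known. Comparisons share libraries. Some list members that enter the counts are not reported here by name. Alternatives covered pseudocounts of 0.1 and 0.5, filters, TPM, quantile normalization, voom on the recovered reads, GC and length correction, confident restorations only, a replicate block, all 24 libraries in 1 fit, and libraries left out.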

Additional observations from a re-analysis of the deposited data

Results flagged for a closer look

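The following genes had a departure that differed between Sem and Nalm6 by limma's test of the difference itself (adjusted p under 0.05 over 15116 genes); each value is the Sem departure minus the Nalm6 departure in log2 units. Groups of 3 libraries are too small for a test of single outlying libraries. More negative in Sem were KLF2 (-1.76), CD22 (-1.08), OTUD1 (-1.03), EVI2B (-1.02) and DUSP6 (-0.986). In all of them but DUSP6 the Sem departure was within 0.20 of 0, and the Nalm6 departure was positive: 1.60 for KLF2, a quiescence factor, 0.95 for the B cell receptor inhibitor CD22, 0.83 for the deubiquitinase OTUD1 and 1.14 for the membrane protein EVI2B. DUSP6 lost the call with voom (-0.87, adjusted p = 0.272) and with a pseudocount of 0.1 (-0.93, 0.149).

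HSPA5 (-0.664) departed by 0.13 in Sem, where it was not called, and by 0.80 in Nalm6. INSIG1 (-0.709) was above the sum in both lines, by 0.48 in Sem and 1.19 in Nalm6. SLC7A11 (-0.447) was below it in both, by -0.92 and -0.47, and lost the call with voom (adjusted p = 0.108) or without asparaginase 3 or combination 1 of Sem or asparaginase 2 of Nalm6 (0.0514 to 0.0532). CIITA (-0.419), the regulator of MHC class II, kept the call in 19 of 35 alternatives.

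More positive in Sem were IGLL1 (1.46), NCF4-AS1 (1.19), VPREB3 (1.13), MZB1 (1.05) and RPL13P12 (1.0). NCF4-AS1 lost the call in 8 and RPL13P12 in 2 of 35 alternatives; RPL13P12 is a pseudogene and may share reads with RPL13. UNC5B (-0.903), PLXNA1 (-0.691), HSPB7 (0.574) and DPT (0.759) were under the filter in Nalm6 alone, so their difference is close to the Sem departure; each lost the call with voom, where UNC5B turned to 0.34.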

How the results depend on the processing

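The total of 206 calls was 409 on TPM, 651 with voom, 136 with no filter on low values and 60 when a departure of 0.5 was also asked; leaving out 1 library gave 73 to 374. Calls above the sum, 102, were 156 with a filter of 5 FPKM, 201 with voom, 65 with no filter and 24 at 0.5, and 33 to 204 without 1 library. Calls below, 104, were 341 on TPM, 450 with voom, 157 after quantile normalization and 36 at 0.5, and 40 to 170 without 1 library. Of the 206, 169 were also called on TPM, 185 with voom and 175 after quantile normalization, and all 206 kept their sign in these 3. Without untreated 2 and ibrutinib 2 together, 206 genes were called, 128 of them shared. Counts for the single drugs and the combination stayed within 1.5 times. The difference between the lines, 366, was 577 after GC and length correction, and 260 to 452 without 1 library. BTK turned to -0.040 on TPM and -0.025 after quantile normalization, KLF2 in Sem (-0.26 to 0.017 without 1 library) to 0.017 without untreated replicate 1, and the UNC5B difference between the lines to 0.34 with voom; the causes were not tested. With the replicate number as a replicate block, 110 genes were above and 104 below the sum (214 in all, 166 shared), and 338 differed between the lines. Of the calls picked by the naming rule, BMF-AS1, TRIB3, HSD17B7, ETV5 and YPEL3 were lost with the block. Same-numbered Sem libraries correlated over 0.1 in 10 of 18 pairs (0.014 to 0.395) and best with their own number in 33 of 36 cases, a hint from the data and not the design, so the numbers were not taken to pair the libraries. Depth limits genes near 1 FPKM, such as ASNS.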
